A study of Mus musculus with 8 samples.

Results

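The genes described here are 10 amino acid transporter genes tied to MYC and to the supply of amino acids in growing cells: Slc7a5, Slc3a2, Slc1a5, Slc1a4, Slc7a11, Slc7a1, Slc7a3, Slc38a1, Slc38a2 and Slc6a9. They were chosen by name, with earlier results of these data known. Every probe set with 1 of these symbols in the platform annotation was taken, which gave 20 of the 45101 probe sets on the array and 10 of the 18193 genes measured. The arrays came from JoMa1, a line of neural crest precursor cells from the mouse, and from lines that grew out of tumours formed by JoMa1 cells carrying transfected MYCN, and the study compared these tumour lines with JoMa1. There were 3 arrays of parental JoMa1, 1 array labelled as JoMa1 transfected with GFP, and 4 arrays of tumour lines, which the labels number 3 to 6. JoMa1 carries a conditional form of MYC that tamoxifen switches on, but the labels used here do not say which groups received tamoxifen. The tumours grew in immunocompromised mice. The labels call them independent tumours, while the study's design text speaks of cell lines derived from tumours. No label says whether the parental arrays are separate cultures, so that the p-values measure only the spread between these samples, which may be technical.

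Amino acid transporters of the plasma membrane work in small relays. Sodium-driven carriers such as Slc38a1 and Slc38a2 load the cell with glutamine and other neutral amino acids. Exchangers such as Slc7a5 trade them for leucine and other large amino acids that the cell cannot make. Several of the exchangers reach the membrane only when joined to the heavy chain encoded by Slc3a2. MYC and MYCN are known to bind and switch on several of these genes in proliferating cells and in neuroblastoma, and ATF4, the transcription factor of the amino acid shortage response, switches on many of the same ones.

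Values are RMA levels on the log2 scale, where a difference of 1 is a doubling. A gene was read from its brightest probe set, by the mean of the 8 arrays. It was called at an adjusted p under 0.05 in limma, with Benjamini-Hochberg adjustment over all 18193 genes. A difference is given with its standard error (SE) from that fit, a mean with its SD over arrays (±), and intervals are 95% intervals.

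The transfected gene was read first, because it checks the labels. Mycn stood at 7.42 ± 0.12 in parental cells (n = 3) and at 14.17 ± 0.08 in tumour lines (n = 4), a difference of 6.74 (SE 0.08, adjusted p = 1.79e-09 in limma). The library labelled GFP-transfected read 11.73, far above the parental arrays, which goes against that label. These values are from the brightest of 3 Mycn probe sets. Another went the opposite way and was called lower, with differences of -3.53 in the tumour lines and -3.80 in the library labelled GFP-transfected, and the third differed by 0.30 and 0.12 and did not pass the test. The mean of the 3 differed by 1.17 between tumour lines and parental cells. Myc rose by 1.26 in the tumour lines (SE 0.25, adjusted p = 0.00443 in limma), with levels of 8.64 ± 0.12 in parental cells and 9.90 ± 0.52 in tumour lines, and it read 7.23 in the library labelled GFP-transfected.

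Between tumour lines and parental cells, 6 of the 10 transporter genes fell, 1 rose and 3 did not pass the test. The largest falls were those of Slc1a5, Slc7a1, Slc7a5 and Slc6a9, each between 1.82-fold and 2.09-fold. The same 6 genes lay below every parental array in all 4 tumour lines, 1 gene lay above, and 3 overlapped. Across all genes 36.0% were called, 16.6% higher and 19.4% lower, and 44.4% had tumour lines and parental arrays that did not overlap. The median difference over the 10 genes was -0.39, against 0.01 over all genes. In bulk RNA such a difference can come from fewer cells of a type or from less RNA per cell, and these cannot be told apart.

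**Figure D1:**
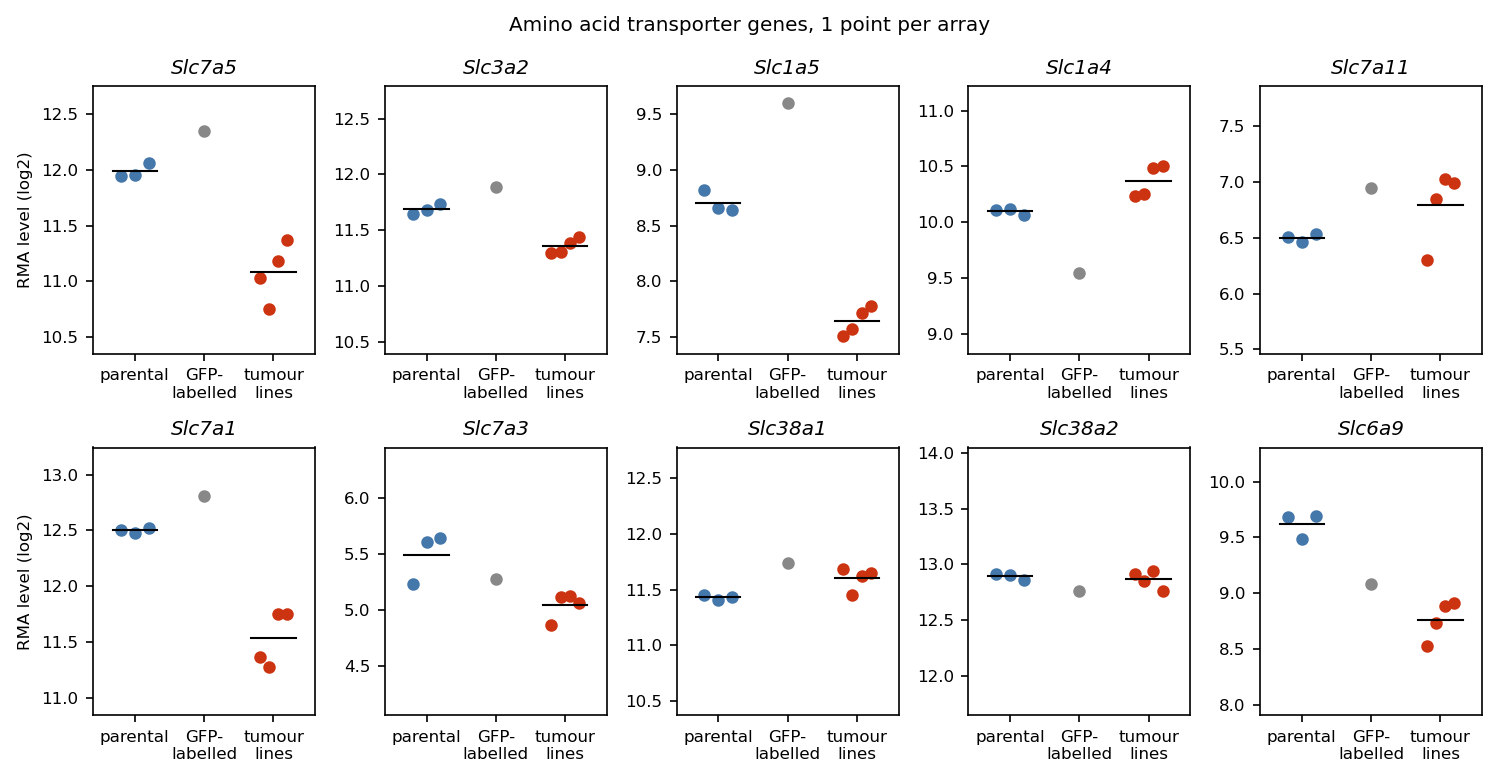
RMA level on the log2 scale of each of the 10 genes, 1 point per array, for 3 parental arrays, the array labelled GFP-transfected and 4 tumour lines in the order 3 to 6. Bars mark the group means, and each panel has its own axis range. Tumour lines lie below all parental arrays for Slc7a5, Slc3a2, Slc1a5, Slc7a1, Slc7a3 and Slc6a9 and above them for Slc1a4.

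The exchanger Slc7a5, also known as LAT1, takes up leucine and other large neutral amino acids in trade for glutamine. Its level was 11.95, 11.96 and 12.06 in the parental arrays, 12.35 in the library labelled GFP-transfected, and 11.03, 10.75, 11.18 and 11.37 in tumour lines 3, 4, 5 and 6. Every tumour line was below every parental array, and line 4 was the lowest. The group means were 11.99 ± 0.07 (n = 3) and 11.08 ± 0.26 (n = 4), a 1.87-fold fall (difference -0.91, SE 0.13, interval -1.21 to -0.60, adjusted p = 0.000975 in limma).

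Slc3a2, the CD98 heavy chain that carries Slc7a5 and Slc7a11 to the membrane, fell less. It read 11.64, 11.68 and 11.74 in parental cells, 11.89 in the library labelled GFP-transfected and 11.30, 11.31, 11.39 and 11.44 in the tumour lines. The groups did not overlap, and the 4 lines lay close together, with an SD of 0.07 that was larger than that of 15.4% of all genes. The difference was -0.33 (SE 0.07, interval -0.49 to -0.17), a 1.26-fold fall with an adjusted p of 0.00523 in limma.

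Other light chains that pair with Slc3a2 were read beside it after their values were seen, and of these Slc7a10, a carrier of small neutral amino acids, differed by -0.006 (SE 0.06) and did not pass the test. Slc7a8, which carries neutral amino acids much as Slc7a5 does, read 6.08, 6.07 and 6.01 in parental cells and 7.37, 6.97, 7.55 and 6.93 in the tumour lines. It thus rose where Slc7a5 fell, by 1.15 (SE 0.15, adjusted p = 0.000513 in limma). Slc7a6, which exchanges cationic for neutral amino acids, rose by 0.30 (SE 0.07, adjusted p = 0.00848 in limma). Slc7a7, of the same exchange system, differed by 0.28 (SE 0.09), and its call at an adjusted p of 0.0418 in limma was kept in 7 of the 16 alternatives that gave it a value. Among the alternatives it lay between 0.19 and 0.32. The other probe set of Slc7a7 differed by 0.11 and did not pass the test. Slc7a7 was dim, at 5.28 ± 0.08 in parental cells.

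Slc1a5, or ASCT2, is the exchanger through which many tumour cells take up glutamine. It showed the largest fall of the 10 genes. Its level was 8.82, 8.66 and 8.64 in parental cells, 9.60 in the library labelled GFP-transfected, and 7.51, 7.57, 7.72 and 7.78 in the tumour lines. The lines were all below the parental arrays, and the library labelled GFP-transfected was above all others. Tumour lines and parental cells differed by -1.06 (SE 0.09, interval -1.27 to -0.86, 2.09-fold) with an adjusted p of 4.5e-05 in limma. The other probe set of the gene fell as well, by 0.52 (SE 0.09, adjusted p = 0.00216 over the 34945 probe sets).

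Slc1a4, or ASCT1, a relative of Slc1a5 that exchanges alanine, serine and cysteine, was the 1 gene that rose. It read 10.11, 10.12 and 10.07 in parental cells, 9.54 in the library labelled GFP-transfected and 10.23, 10.25, 10.49 and 10.50 in tumour lines 3 to 6. All lines were above the parental arrays, lines 3 and 4 by little. The difference was 0.27 (SE 0.09, interval 0.07 to 0.48, 1.21-fold, adjusted p = 0.0442 in limma). That call ended in 8 of 17 alternatives. Leaving out parental array 1, 2 or 3 or tumour line 5 or 6 ended it (adjusted p = 0.111, 0.100, 0.126, 0.0920 and 0.0947 in limma). It also ended with the mean of its 3 probe sets (0.09, adjusted p = 0.482), since the other 2 differed by 0.01 and -0.001 and did not pass the test.

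Slc7a11, or xCT, the light chain of the antiporter that brings in cystine for glutathione in trade for glutamate, did not pass the test. Its level was 6.51, 6.46 and 6.53 in parental cells, 6.94 in the library labelled GFP-transfected and 6.30, 6.84, 7.03 and 6.996 in tumour lines 3, 4, 5 and 6. Line 3 lay below the parental arrays and the other lines above them. The difference was 0.29 (SE 0.17, interval -0.09 to 0.67, adjusted p = 0.226 in limma). The lines' SD of 0.34 was larger than that of 91.9% of all genes. Without tumour line 3 the difference was 0.45, with an adjusted p of 0.00333 in limma. The second probe set differed by 0.16 (interval -0.08 to 0.39) and did not pass either.

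The promoters of Slc7a11, which did not pass the test, and Slc1a4 are shown because ATF4 is a known regulator of both genes. Slc7a11 and Slc1a4 were also the only ones of these genes whose windows held the ATF4 letters described below. Those of Slc7a1 and Slc3a2 were picked as genes that fell. Another window of Slc7a1 and the windows of Slc6a9, which fell too, and of Slc38a2 are not printed and held no match. The lines shown are thus a selection, and no contrast between them is drawn. Whether these letters go with the direction of a gene was not tested. Windows of 300 bases, 250 before and 50 after the annotated start, came from RefSeq on GRCm38.p6 and matched 6 of the 10 genes in 9 windows. Both strands were searched for TGATGNAA, a core of the sites ATF4 binds, and for the palindromic E-box CACGTG, the site MYC and MAX bind. Matches were allowed to overlap, and those found did not. Each line below gives 100 bases before the start and 10 after it, 5′ to 3′ on the gene's strand, with matches to TGATGNAA on either strand in capitals.
Slc7a11, minus strand, chr3:50443604-50443713: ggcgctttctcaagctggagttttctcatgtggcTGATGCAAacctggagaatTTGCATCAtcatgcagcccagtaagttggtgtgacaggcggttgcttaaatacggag
Slc1a4, minus strand, chr11:20332704-20332813: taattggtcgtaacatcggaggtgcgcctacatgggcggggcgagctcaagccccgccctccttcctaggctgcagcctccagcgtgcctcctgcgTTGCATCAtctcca
Slc7a1, minus strand, chr5:148399895-148400004: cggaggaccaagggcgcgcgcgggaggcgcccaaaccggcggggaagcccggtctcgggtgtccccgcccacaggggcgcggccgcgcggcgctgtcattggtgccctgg
Slc3a2, minus strand, chr19:8713888-8713997: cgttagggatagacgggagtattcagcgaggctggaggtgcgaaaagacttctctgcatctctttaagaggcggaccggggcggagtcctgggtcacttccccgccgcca

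The Slc7a11 window held 2 matches in opposite orientation, at 66 to 59 and at 47 to 40 bases before the start. The Slc1a4 window held 1 match, which ran across the annotated start. Among all 32851 promoter windows 3.97% held a match and 23 windows held 2 or more. None of the windows of Slc7a1, Slc3a2, Slc38a2 and Slc6a9 held TGATGNAA. The E-box was in 0 of the 9 windows of these genes and in 7.15% of all windows. A match is a description of letters, and a missing one says only that these letters are not in this window. Slc7a5, Slc1a5, Slc7a3 and Slc38a1 were not among the genes matched.

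Slc7a1, or CAT1, brings in arginine, lysine and ornithine. It read 12.51, 12.48 and 12.52 in parental cells, 12.81 in the library labelled GFP-transfected, and 11.37, 11.28, 11.75 and 11.75 in tumour lines 3 to 6. The lines fell clear of the parental arrays, lines 3 and 4 further than lines 5 and 6. The difference was -0.97 (SE 0.13, interval -1.26 to -0.67, 1.95-fold, adjusted p = 0.000554 in limma). A second probe set fell by 0.89 (SE 0.11, adjusted p = 0.000321 over all probe sets). The third, whose parental values of 5.22 to 5.58 were much lower, differed by -0.18 and did not pass the test.

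Slc7a3, or CAT3, a cationic amino acid transporter best known from brain, was dim. Its level was 5.23, 5.61 and 5.65 in parental cells, 5.28 in the library labelled GFP-transfected and 4.87, 5.12, 5.12 and 5.07 in the tumour lines, while bacterial trpnX controls that should give no signal read 3.84 to 4.04. The groups did not overlap, although parental array 1 lay close to the lines. The fall of 0.45 (SE 0.12, interval -0.73 to -0.18, adjusted p = 0.0167 in limma) was no longer called without parental array 2 or 3 (adjusted p = 0.0722 and 0.0734).

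Slc7a2 or CAT2, a cationic amino acid transporter outside the 10 genes, was read after its values were seen. It stood at 8.11, 8.08 and 8.11 in parental cells, at 5.86 in the library labelled GFP-transfected, and at 8.65, 9.97, 8.73 and 9.22 in the tumour lines. The lines were above the parental arrays, by a margin that differed between lines. The rise of 1.05 (SE 0.28, adjusted p = 0.0199 in limma) was called in 13 of 17 alternatives and not without parental array 1, 2 or 3 or with the library labelled GFP-transfected counted as parental, with adjusted p up to 0.0658. Over the alternatives the difference ran from 0.77 to 1.60. Among its other probe sets, rises of 0.82 and 0.675 were called, and a difference of 0.57 did not pass the test.

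The system A carriers take up glutamine, alanine and other small neutral amino acids with sodium. Slc38a1, or SNAT1, read 11.45, 11.41 and 11.43 in parental cells, 11.74 in the library labelled GFP-transfected and 11.68, 11.45, 11.62 and 11.65 in the tumour lines. Line 4 lay among the parental arrays and the other lines above them. The difference of 0.17 (SE 0.08, interval -0.003 to 0.34) did not pass the test, with an adjusted p of 0.121 in limma. Without line 4 it was 0.22 and passed (adjusted p = 0.0300). The second probe set rose by 0.30 (SE 0.08, adjusted p = 0.0159 over all probe sets), with parental values of 9.69, 9.51 and 9.58 and tumour values of 9.996, 9.81, 9.91 and 9.89.

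Slc38a2, or SNAT2, the carrier of this family that cells raise when amino acids run short, read 12.91, 12.91 and 12.86 in parental cells, 12.76 in the library labelled GFP-transfected and 12.91, 12.86, 12.94 and 12.76 in the tumour lines. The groups overlapped. The difference was -0.03 (SE 0.07, interval -0.19 to 0.13, adjusted p = 0.815 in limma). The other 2 probe sets differed by 0.20 and 0.22 and did not pass the test.

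Slc6a9, or GLYT1, a sodium- and chloride-driven glycine transporter, fell. It read 9.69, 9.49 and 9.69 in parental cells, 9.08 in the library labelled GFP-transfected and 8.52, 8.73, 8.88 and 8.91 in the tumour lines. The lines were below all parental arrays. The library labelled GFP-transfected lay between the groups. The difference was -0.86 (SE 0.11, interval -1.11 to -0.61, 1.82-fold, adjusted p = 0.000407 in limma). The second probe set differed by -0.24 (interval -0.45 to -0.03) and did not pass the test, with an adjusted p of 0.0775, and the mean of both was -0.55.

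**Figure D2:**
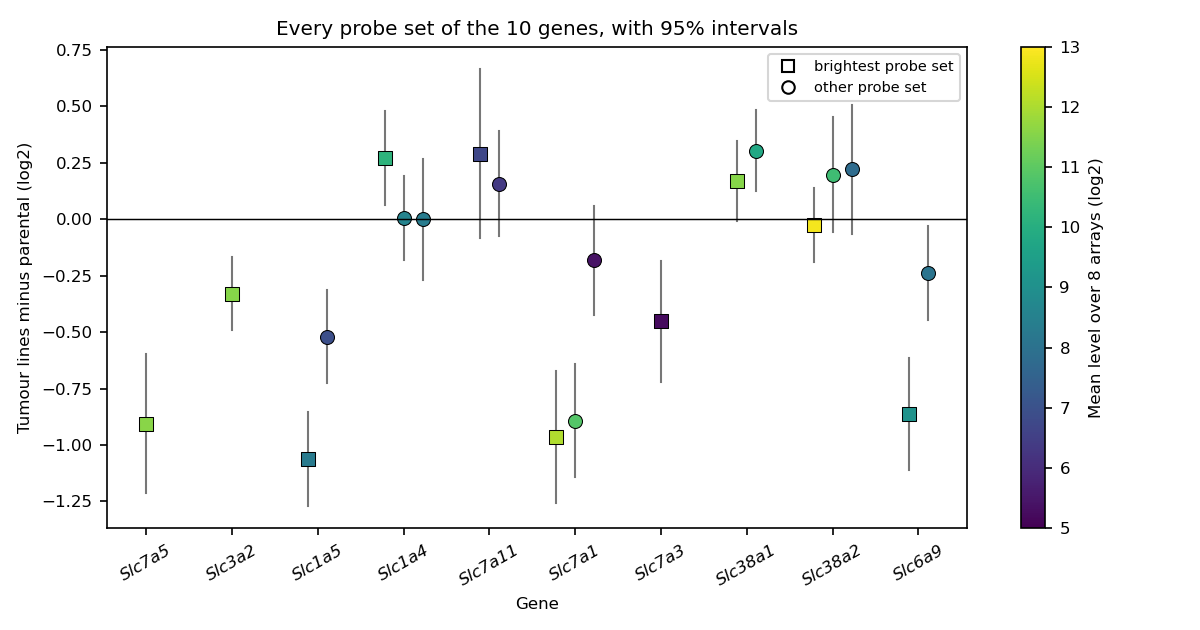
Difference between tumour lines and parental cells on the log2 scale for each of the 20 probe sets, with 95% intervals. Squares mark the brightest probe set of a gene, circles the others, and the colour gives the mean level over 8 arrays. The probe sets of Slc1a5 both lie below 0, those of Slc7a1 include a dim one near 0, and those of Slc1a4 include 2 at 0.

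Counted singly, 8 of the 20 probe sets fell, 2 rose and 10 did not pass the test. Of all 34945 probe sets, 33.9% were called, 15.5% higher and 18.4% lower. The probe sets of 1 gene read the same RNA and are not replicates of a condition. The falls of Slc7a5 and Slc3a2 each rested on 1 probe set, as did the fall of Slc7a3.

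The 4 tumour lines differed among themselves in order. Line 3 was the lowest of the 4 for 6 of the 10 genes, line 4 for 3 and line 6 for 1. Line 6 was the highest for 5 genes, line 5 for 4 and line 3 for 1. How often each line was lowest or highest among all genes was not counted. The median difference of the 10 genes from the parental mean was -0.51 in line 3, -0.38 in line 4, and -0.34 in lines 5 and 6, while that of all genes was 0.003 to 0.015.

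The library labelled GFP-transfected gives 1 array with no replicate, whose spread the fit takes from the other groups. Its high Mycn goes against its label, so that a direction drawn from it describes that library only. Against parental cells Slc1a5 was higher by 0.89 (SE 0.14, 1.85-fold, adjusted p = 0.00323 in limma) and Slc1a4 lower by 0.56 (SE 0.14, adjusted p = 0.0258). The other 8 genes did not pass the test. Across all genes 16.1% were called, 7.43% higher and 8.66% lower. The Slc1a4 call ended without parental array 1, 2 or 3, with adjusted p between 0.0613 and 0.0701 in limma. Without tumour line 3, Slc7a11 (0.44) and Slc6a9 (-0.54) were called too. Their differences were the same as with that line, since leaving it out changes only the spread taken from the other groups. The library lay above all parental arrays for 6 of the 10 genes and below all of them for 3. The share of all genes placed in this way was not counted, so these counts are not read as particular to the 10 genes. For Slc7a5, Slc3a2 and Slc7a1, which were higher there by 0.36, 0.20 and 0.31, the intervals ran from -0.10 to 0.83, from -0.03 to 0.44 and from -0.14 to 0.76. The second probe set of Slc7a1 was called higher by 0.65 (adjusted p = 0.0334 over all probe sets).

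Tumour lines against the library labelled GFP-transfected share the tumour arrays with the first comparison. Slc1a5 was lower by 1.95 (3.87-fold, SE 0.13, adjusted p = 1.9e-05 in limma), Slc7a1 by 1.28, Slc7a5 by 1.27 and Slc3a2 by 0.53, and Slc1a4 was higher by 0.83, the last 4 with adjusted p from 0.00119 to 0.00391 in limma. These were the 5 calls among the 10 genes, 4 lower and 1 higher. Across all genes 30.3% were called, 14.0% higher and 16.4% lower. The library was above all 4 tumour lines for 7 of the genes and below all of them for Slc1a4. For all genes this placing was not counted, so it is not read as particular to these genes.

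**Figure D3:**
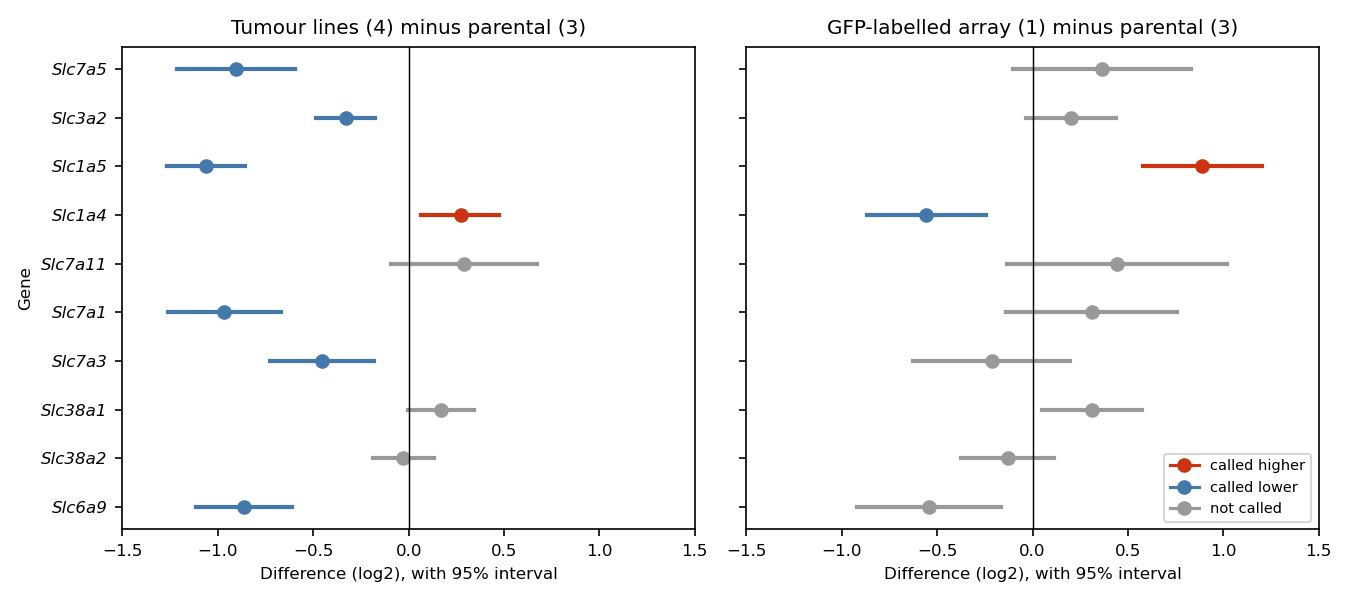
Differences on the log2 scale with 95% intervals for the 10 genes, tumour lines against parental cells on the left and the array labelled GFP-transfected against parental cells on the right. The panels share the parental arrays. Slc1a5 is lower on the left by 1.06 and higher on the right by 0.89, and Slc1a4 is higher on the left by 0.27 and lower on the right by 0.56.

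Lists of related genes, without the 10 genes themselves, were read in the same fit of tumour lines against parental cells. Some lists share genes, such as Sesn2, Gpt2 and Lars, which are counted in each list that holds them. All counts of rises and falls in these lists stand beside 16.6% higher and 19.4% lower among all genes. Of 39 other amino acid transporters, 14 rose and 5 fell, with a median difference of 0.10. Slc1a3, a glutamate transporter of astrocytes and radial glia, went from 7.34 ± 0.14 to 12.17 ± 0.14 (28.5-fold, adjusted p = 4.12e-08 in limma), and all 6 of its probe sets rose. Slc38a4, a system A carrier of the placenta and liver, read 11.52, 11.58 and 11.71 in parental cells and 5.30, 5.27, 3.70 and 4.23 in tumour lines 3 to 6. It fell in all lines (adjusted p = 3.55e-06 in limma), but lines 5 and 6 were at or near the trpnX controls, so that no exact fold is given. Its other probe set fell as well. Slc6a15, a carrier of branched-chain amino acids and proline, fell by 2.05 (SE 0.48), and Slc6a17, a neutral amino acid transporter of synaptic vesicles, rose by 1.51 (SE 0.14) in its brightest probe set and by 0.62 and 0.60 in the others, with a mean of 0.91.

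Of 23 measured genes of the ATF4 amino acid response, 13 fell and 6 rose (19.4% and 16.6% of all genes), with a median of -0.29. Cth, the last enzyme of cysteine synthesis from methionine, fell by 2.01 (SE 0.20) and Trib3, a pseudokinase that feeds back on ATF4, by 1.51 (SE 0.21). Vldlr, a lipoprotein receptor, rose by 1.40 (SE 0.15) and Nupr1, a stress-induced chromatin protein, by 1.28 (SE 0.11). The 6 probe sets of Vldlr all rose, by 0.32 to 1.43, and without the _x_at and _s_at kinds its rise was 0.82. The 4 were called by limma with adjusted p from 5.88e-05 to 0.000688. Of 19 cytosolic aminoacyl-tRNA synthetases, which load amino acids onto tRNA, 11 fell and 2 rose, with a median of -0.41. Mars1 for methionine fell by 0.97 (SE 0.09) and Lars for leucine by 0.87 (SE 0.06), while Farsa, a subunit of the phenylalanine enzyme, rose by 1.84 (SE 0.13) and Tars for threonine by 0.47 (SE 0.06).

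Glutamine use gave 5 falls and 2 rises among 14 genes, with a median of -0.10, where 19.4% of all genes fell and 16.6% rose. Cad, which starts pyrimidine synthesis, fell by 1.08 (SE 0.17) and Pfas of purine synthesis by 0.60 (SE 0.12), while Gfpt2 of hexosamine synthesis rose by 1.70 (SE 0.11) and Gpt2, an alanine transaminase, by 1.003 (SE 0.11). Glutathione synthesis from cystine gave 5 falls and 1 rise among 11 genes, and 3 falls without parental array 1 or 2. Gsr, which reduces oxidised glutathione, fell by 1.28 (SE 0.12), and Chac2, which degrades glutathione, rose by 0.68 (SE 0.08). The brightest probe set of Txnrd1, the cytosolic thioredoxin reductase, fell by 0.75 (SE 0.08), while its other probe sets differed by -0.24 and -0.07 and did not pass the test, which puts the mean at -0.35.

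The genes by which mTORC1 senses amino acids were split, with 10 rises and 12 falls among 32 and a median of -0.003, where 16.6% of all genes rose and 19.4% fell. Averaging probe sets left 7 falls. Lamtor4 and Sec13, parts of the Ragulator and GATOR2 complexes, rose by 1.32 (SE 0.11) and 0.78 (SE 0.07), and Sesn2, a leucine sensor, fell by 1.15 (SE 0.14). The brightest probe set of the GTPase gene Rragd fell by 2.71 (SE 0.14), while its other 2 differed by -0.04 and 0.04 and did not pass, which puts the mean at -0.90. Branched-chain amino acid breakdown gave 3 rises and 7 falls among 18 genes, with Ivd down by 1.44 (SE 0.13), Hibch by 0.82 (SE 0.15), Dbt up by 1.24 (SE 0.08) and Pccb by 0.67 (SE 0.10). In the MYC family and its partners, 5 of 12 genes rose and 3 fell. Besides Mycn and Myc the rule named the MYC antagonist Mxi1, which fell by 0.95 (SE 0.09), and the glucose-responsive partner of MLX, Mlxip, which fell by 0.66 (SE 0.12). Each single gene value of these lists was below an adjusted p of 0.05 in limma.

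**Figure D4:**
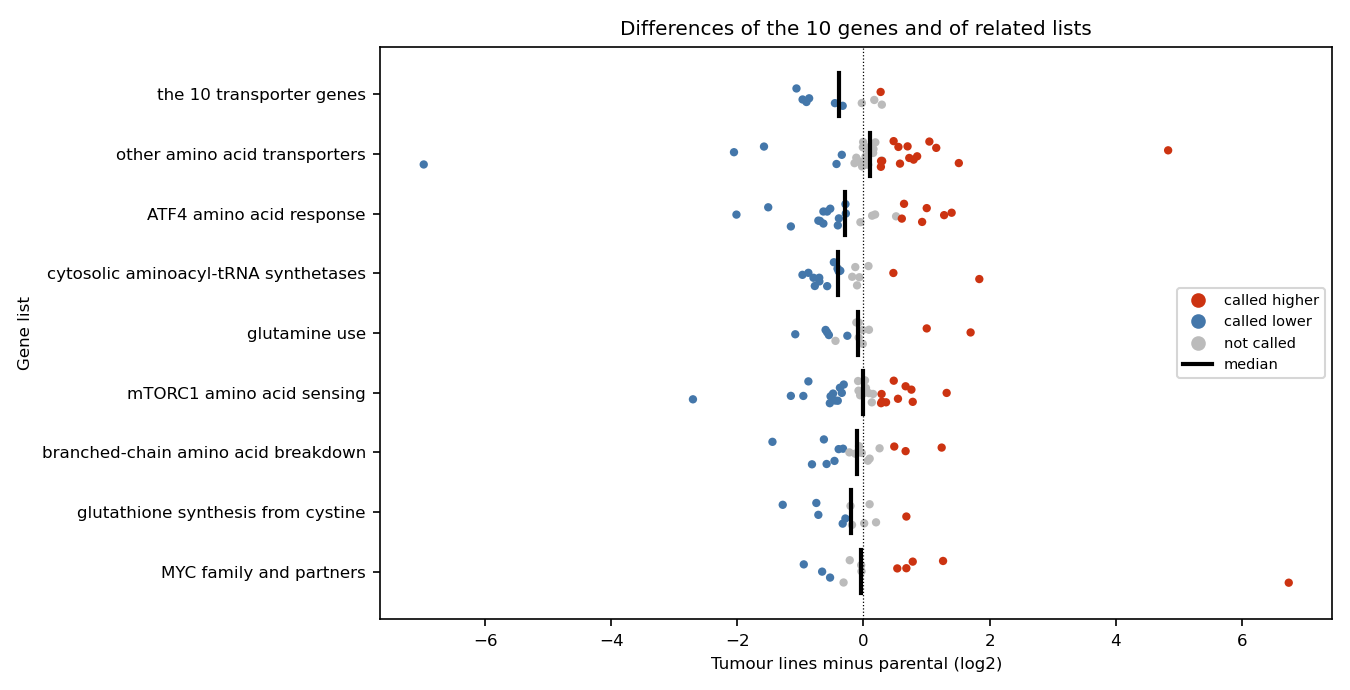
Difference between tumour lines and parental cells on the log2 scale for the 10 genes and for each related list, 1 point per gene, with red for called higher, blue for called lower, grey for not called and a bar for the median. The 10 genes have a median of -0.39, the aminoacyl-tRNA synthetases -0.41 and the other amino acid transporters 0.10.

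Markers were read beside these results. Of 11 neural crest markers, Snai2 rose and Tfap2b, Pax3 and Ets1 fell, and the mean level of the list was 8.45 to 8.46 in parental arrays, 8.22 in the library labelled GFP-transfected and 7.84 to 7.97 in tumour lines. In parental cells Foxd3, Ngfr and Tfap2a were low, at 4.59, 5.40 and 5.66, and Sox10 and Sox9 read 7.34 and 7.97. Twist1, Nes and Tfap2b read 9.31, 9.44 and 9.82, and Pax3, Ets1 and Snai2 read 10.55, 11.36 and 11.55. Of 11 leukocyte markers, Cd14, Cd68 and Lyz2 rose, and the list's mean was 5.40 to 5.56 for parental cells and 5.77 to 5.81 for the tumour lines, while the defining marker Ptprc stood at 4.14 and 4.09, near the trpnX controls. These counts, 4 of 11 and 3 of 11, stand beside 36.0% called among all genes, and are near or below it. The part of these marker levels in the transporter results was not tested. None of 8 endothelial and none of 3 red cell markers passed the test. Array medians ran from 6.26 to 6.30, and parental array 3 had the lowest signal of the bioB spike, 7.70 against 8.86 to 9.17 on the rest.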

How the data were processed

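RNA was extracted with Trizol and RNeasy columns and labelled with biotin for Affymetrix arrays, per the labels' protocols. The authors deposited log2 values, 1 per probe set and array, made with RMA and Partek, named without versions in the submitters' processing notes. RMA sets arrays to a shared distribution and compresses dim signals, so that levels are relative and small differences of dim genes are understated. Of the 45101 probe sets, 34945 carried 1 gene symbol, 932 several and 9160 none, and 64 were controls. Of the first, 34741 were matched in RefSeq and 0 symbols changed. Each gene took its brightest probe set. limma (3.58.1, R 4.3.3) was fitted with lmFit and eBayes to all 8 arrays with 1 coefficient per group, two-sided, with 5 residual degrees of freedom. The script was tested on simulated data. The number of arrays limits the precision.

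Named genes came by rule: all 10 genes, Mycn and Myc, up to 2 called rises and 2 called falls per list, and for each called transporter the gene of highest Pearson r, of which that for Slc7a1 is not reported here. Slc7a2, Slc7a6, Slc7a7, Slc7a8 and Slc7a10 and the markers named stand outside this rule. The genes and lists were chosen with earlier results of these data known. Alternatives were other probe set choices, normalizations, variance priors, treatments of the library labelled GFP-transfected, and leaving out each array.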

Additional observations from a re-analysis of the deposited data

Results flagged for a closer look

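Tumour lines were checked for a value far from the other 3 in 55 probe sets, those of the 10 transporter genes and of the named related genes, and 3 stood apart. Chance flags about 1 in 20 such groups. In the second probe set of Slc1a5, tumour line 3 read 6.36 and the other lines 6.57 to 6.60, a gap of 0.865 of the group's range. Pccb, of propionate breakdown, read 8.92 in line 4 and 9.17 to 9.22 in the others (gap 0.838). Hibch, of valine breakdown, read 8.76 in line 4 and 8.17 to 8.23 in the others (gap 0.903).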

How the results depend on the processing

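The falls of Slc7a5, Slc3a2, Slc1a5, Slc7a1 and Slc6a9 against parental cells were called in 17 of 17 alternatives. Not all alternatives could change these results. Leaving out the library labelled GFP-transfected does not alter this comparison, and Slc7a5 and Slc3a2, with 1 probe set each, keep their differences under other probe set choices. The number of the 10 genes called higher in tumour lines than in parental cells was 1, and it was 2 without probe sets of the kinds _x_at and _s_at, 0 with arrays centred on their medians, 0 with the library labelled GFP-transfected counted as parental, and 0 to 2 when an array was left out. In that library the number called higher than in parental cells was 2 with the mean of all probe sets, 2 without the _x_at and _s_at kinds and 1 to 2 when an array was left out. The number called lower was 2 among genes above the median level, 2 with array weights and 0 to 2 when an array was left out. The Slc38a2 difference of -0.03 between tumour lines and parental cells turned to 0.131 with the mean of probe sets and to 0.006 with the library counted as parental, and ran from -0.051 to 0.009 when an array was left out. The Slc7a11 difference between tumour lines and that library ran from -0.231 to 0.012, the highest without tumour line 3. Of 464 values of the 10 genes under alternatives, 437 kept direction and call, 13 lost the call, 10 gained it and 4 turned, and of 592 values of other named genes 579 kept both and 13 lost the call. Among lists, other amino acid transporters had 8 rises among genes above the median level, since fewer genes were tested. Glutathione synthesis had 3 falls with the library counted as parental and 2 rises with the mean of probe sets, and the MYC list had 3 rises with the library counted as parental. The cause of these shifts was not tested unless named. No paired analysis was possible because no label pairs a parental array with a tumour line. Signals near the trpnX controls, such as Slc7a3, limit what can be read.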

Other observations

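In the library labelled GFP-transfected, the lists related to amino acid supply were read against the same parental arrays, where 7.43% of all genes were called higher and 8.66% lower. The aminoacyl-tRNA synthetases had 2 genes higher and 0 lower of 19 in limma, with a median difference of 0.02. The ATF4 response had 1 higher and 4 lower of 23 with a median of -0.18, glutamine use 2 and 2 of 14 with a median of 0.17, and glutathione synthesis 2 and 1 of 11 with a median of 0.22. Other amino acid transporters had 2 higher and 3 lower of 39. Branched-chain breakdown had 2 higher and 3 lower of 18, mTORC1 sensing 1 and 3 of 32, and the MYC list 2 and 4 of 12.

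For called transporter genes other than Slc7a1, the gene outside the 10 with the most similar levels over the 8 arrays is given by Pearson r, as a description. The arrays fall into 3 groups that these values share. It was Cldn12, a claudin, for Slc7a5 (0.997), Pcsk6, a proprotein convertase, for Slc3a2 (0.995), and Akap9, a scaffold of protein kinase A, for Slc1a5 (0.995). For Slc1a4 it was Ghr, the growth hormone receptor (0.994). Slc7a3 was nearest to the homeobox gene Hoxa3 (0.999), and Slc6a9 to Zfp799, named as a zinc finger gene (0.989).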
